A study of Mus musculus with 7 samples.

Results

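Translation initiation factors are the proteins that place the ribosome and the first transfer RNA on the start codon of a messenger RNA. Their transcripts were examined in newborn mouse liver through 109 probe sets of 39 genes, out of 45101 probe sets on the array. A probe set is the group of short probes that reports 1 transcript on an Affymetrix array. A probe set was a member if the platform annotation gave it a single gene symbol beginning with Eif and a digit. Eif2ak genes, Eif4ebp1 and genes of the X or Y chromosome were left out, which removed 16 and 8 probe sets. Probe sets that carry the symbol of a second gene as well, such as those of Eif3j1 and Eif3j2, were not used here. Factor 1 had 3 genes, factor 2 had 8, factor 3 had 11, factor 4 had 12, factor 5 had 4 and factor 6 had 1.

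The livers came from 4 glycerol kinase knockout mice and 3 wild type littermates, all male C57BL/6J pups on day of life 1. Glycerol kinase turns glycerol into glycerol 3-phosphate, and the age precedes the signs of the deficiency in knockout pups, so the comparison concerns early transcript changes. Each liver gave its own RNA and its own array. The glycerol kinase gene itself was not analysed here, so the group labels were not checked against it. The deposited values are intensities, and each array had been scaled to the same trimmed mean of 500.003. Arrays correlated with each other at r of 0.93 to 0.985, and medians ran from 92.7 to 108.3. Hepatocyte markers were bright on every array, with Alb at 26465 to 39072 in knockout livers and 28357 to 32616 in wild type livers.

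Initiation begins with a small ribosomal subunit that carries eIF1, eIF1A, eIF3 and eIF5. The factor eIF2 brings the initiator transfer RNA, and eIF2B recharges eIF2 with GTP after each round. At the other end of the reaction, eIF4E grips the cap of the messenger RNA, eIF4A unwinds it and eIF4G holds the complex together. Joining of the large subunit needs eIF5B, and eIF6 keeps free large subunits apart from small ones. Many of these genes are known as growth-linked genes, and Eif4e is a textbook target of the transcription factor Myc. Myc and related factors bind the palindrome CACGTG.

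Promoter sequences are shown to let the reader see that palindrome and the first transcribed bases. The RefSeq promoter table of assembly GRCm38.p6 holds 250 bases before to 50 bases from each annotated start. It held 43 promoters for 31 of the 39 genes. Within that window 9 of the 31 genes, or 29.0%, had CACGTG, which reads the same on both strands, against 8.1% of the 27025 genes of the table. Member promoters had a median GC content of 62.7%, against 52.7% over the table, and the part of base composition in the difference was not tested. Each line gives 30 bases on the gene's strand, 5′ to 3′, with the palindrome in capitals.
Eif4e: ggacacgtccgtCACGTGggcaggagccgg
Eif4a1: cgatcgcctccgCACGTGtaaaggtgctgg
Eif4h: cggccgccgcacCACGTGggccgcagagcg
Eif3f: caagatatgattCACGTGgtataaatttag
Eif3k: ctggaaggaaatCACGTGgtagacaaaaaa
Eif1b: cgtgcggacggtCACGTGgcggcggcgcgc
Eif5a2: cagggcgagcttCACGTGacggggcgggac
The stretch of Eif4e is chr3:138527192-138527221 on the plus strand, and its palindrome begins 64 bases before an annotated start. That of Eif4a1 is chr11:69672595-69672624 on the minus strand, 189 bases before the start. Eif4h lies on the minus strand at chr5:134639488-134639517, Eif3f on the plus strand at chr7:108934335-108934364 and Eif3k on the minus strand at chr7:28981915-28981944. The stretches of Eif1b and Eif5a2 are chr9:120492570-120492599 and chr3:28781148-28781177, both on the plus strand. Eif3a and Eif5a were the other 2 genes with the palindrome. The search for CACGTG was added after the values had been seen. By their brightest probe sets, the 9 genes with it had a median log2 fold change of -0.16 (range -0.79 to 0.31), beside -0.08 (range -0.50 to 0.13) for the 21 tested genes whose promoters had none.

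Transcripts of the translation machinery often start with a C and an unbroken run of pyrimidines, the terminal oligopyrimidine start through which the kinase mTOR adjusts their translation. A run of at least 5 pyrimidines with C first stood at an annotated start of 1 of the 31 genes, or 3.23%, against 3.01% of the genes of the table. That gene was Eif3f, shown first, with its start set beside that of Eif2a, whose transcript is described further on. In both lines the last 10 bases are transcribed, and capitals mark the pyrimidine run.
Eif3f: gctcttctgttctaggctctCTCTCTTTCT
Eif2a: cggaagtgtggactccgcccgctccggaga
The stretches are chr7:108934395-108934424 and chr3:58525801-58525830, both on the plus strand, and the pyrimidine run of Eif3f is 11 bases long in all. Only runs that begin at the annotated base were counted, so runs that begin some bases away were missed. Genes without a promoter in the table could not be searched, and the accuracy of the annotated starts was not tested.

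Most initiation factor transcripts were close to their wild type level in knockout liver, and the few calls were all lower. Of the 109 probe sets, 90 passed the filter on dim signals, covering 38 genes, and each was compared between groups with limma on log2(intensity + 16). A probe set is termed called where its p, adjusted over all tested probe sets by the Benjamini-Hochberg method, is under 0.05. Of the 90, 3 were called lower and 0 higher, which is 3.33%, against 4.24% of all 22518 tested probe sets (2.35% higher and 1.89% lower). The 3 probe sets belong to Eif1a, Eif2a and Eif3e. At an unadjusted limma p under 0.05, 20 of the 90 were lower and 0 higher, beside 11.8% lower and 9.97% higher, or 21.7% in all, over all tested probe sets. A total of 69 were lower and 21 higher in knockout, so that 23.3% were higher, beside 45.8% of all tested probe sets. The median log2 fold change was -0.16, beside -0.03 over all tested probe sets. Over all tested probe sets, 529 were called higher and 426 lower, and with arrays scaled to equal medians 541 were called higher and 218 lower. Under that scaling 64 initiation factor probe sets were lower and 26 higher, with 1 called, and the median was -0.10, beside 0.03 over all. At an unadjusted limma p under 0.05, 13 of the 90 were then lower and 2 higher, beside 4642 of all 22518 in either direction. With each gene represented by its brightest probe set, 27 of 38 genes were lower and 11, or 28.9%, higher, beside 49.9% higher over all genes, with a median of -0.10, beside -0.001 over the 11159 genes tested in that way. Probe sets of 1 gene share a transcript and all share the 7 arrays, so these counts describe the arrays and carry no test.

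**Figure D1:**
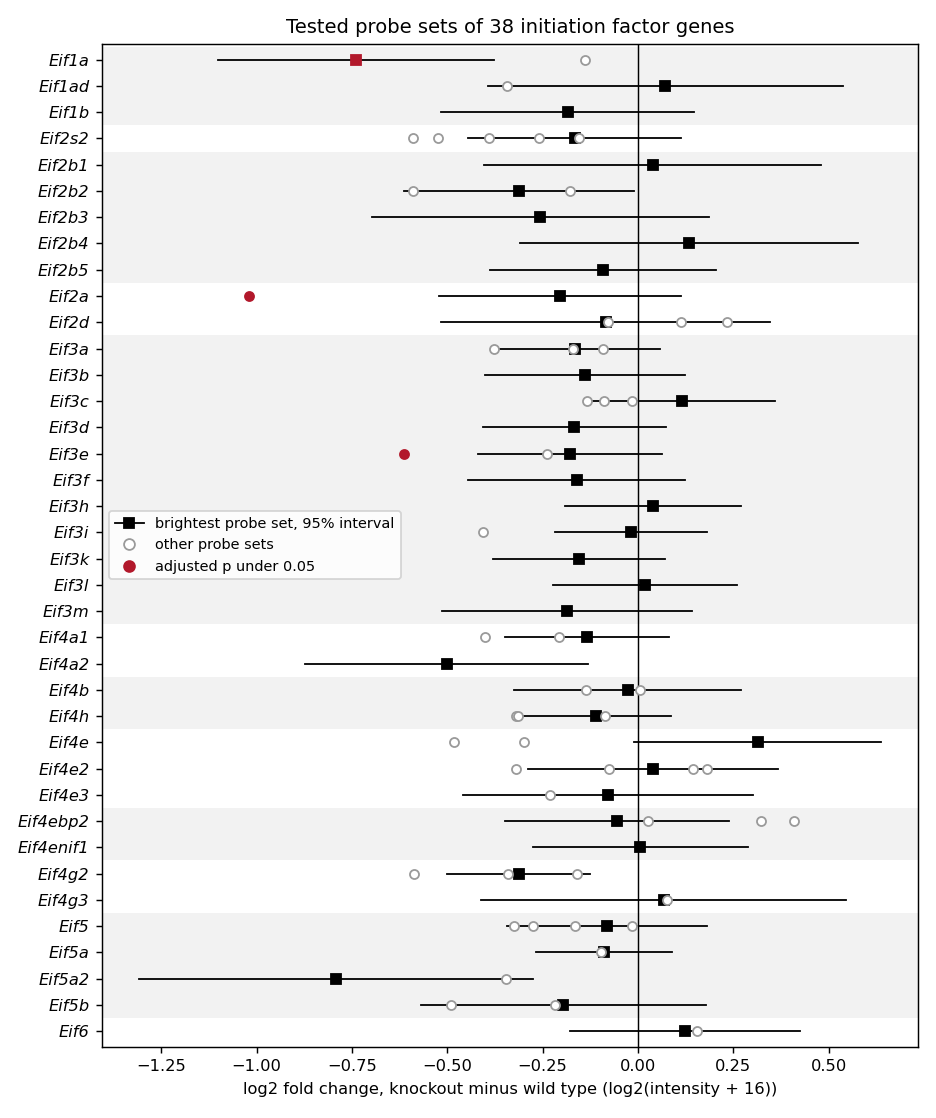
Log2 fold change of knockout minus wild type for the 90 tested probe sets, 1 row per gene, grouped by factor with grey bands. Squares are each gene's brightest probe set with its 95% interval from limma, circles are the other probe sets and red marks the 3 with an adjusted p under 0.05, all left of 0.

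**Figure D2:**
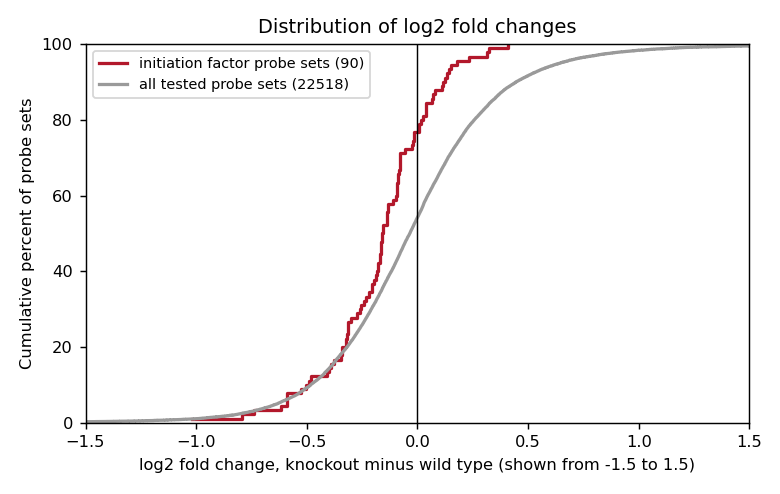
Cumulative percent of probe sets against log2 fold change of knockout minus wild type, for the 90 initiation factor probe sets and all 22518 tested. The line of the initiation factors crosses 50% at -0.16 and that of all probe sets at -0.03, and the highest initiation factor value is 0.41.

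The spread of the members was narrow. Their median absolute log2 fold change was 0.17, beside 0.23 over all tested probe sets, and the values ran from -1.02 to 0.41. For 32 of 38 genes the 95% interval of the brightest probe set, not adjusted for the number of genes, lay within a 1.5-fold change either way. The interval reached past 1.5-fold lower in 5 genes, namely Eif1a, Eif2b2, Eif2b3, Eif4a2 and Eif5a2, and past 1.5-fold higher in Eif4e. The 32 include Eif2a and Eif3e, whose called probe sets are dimmer ones with intervals that do reach past 1.5-fold lower. On the log2 scale these ran from -1.45 to -0.59 for Eif2a and from -0.91 to -0.32 for Eif3e. The groups did not overlap in 24 tested probe sets, 23 lower and 1 higher in knockout, which came from 14 genes. That is 26.7%, beside 21.1% of all tested probe sets. In the lower direction the background was 11.8%, and in the higher direction 9.40%.

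The members of factor 1 were Eif1a, Eif1b and Eif1ad, and Eif1 itself was not among them. Of the 5 tested probe sets of factor 1, 1 was called, beside 4.24% of all tested probe sets. It belongs to Eif1a on chromosome 18. Its protein eIF1A helps the small subunit scan for the start codon. The called probe set 1424343_a_at had intensities of 1934, 1352, 1408 and 1757 in knockout livers, against 3013, 2429 and 2605 in wild type livers. All knockout values lay below all wild type values. The mean was 1612 ± 279 in knockout livers and 2682 ± 300 in wild type livers (SD, n = 4 and 3), and the log2 fold change was -0.74 ± 0.16 (SE, limma adjusted p = 0.0373).

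The second Eif1a probe set, 1424344_s_at, overlapped between groups. Its intensities were 1833, 1531, 1542 and 1436 in knockout livers and 2632, 1359 and 1473 in wild type livers, where wild type 1 stood above the rest. The log2 fold change was -0.14 ± 0.22 (limma adjusted p = 0.761). An ID ending in _s_at marks probes that can match transcripts of several genes, and one ending in _a_at marks probes shared by alternative transcripts of a gene. Signals of Eif1a and of its close copies may therefore not be separate.

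Eif1b, a near copy of eIF1, had 1524, 1936, 1348 and 1554 in knockout livers and 1862, 1825 and 1700 in wild type livers. The groups overlapped (log2 fold change -0.18, limma adjusted p = 0.511). Eif1ad, which encodes a relative of eIF1A, averaged 1759 ± 445 in knockout livers and 1665 ± 379 in wild type livers by its brighter probe set (log2 fold change 0.07, limma adjusted p = 0.880). Its second probe set had the other sign, at -0.34, and also did not pass.

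The called probe set of factor 2 was that of Eif2a, the gene of eIF2A. This protein can bring the initiator transfer RNA to some messages in place of eIF2, and it is not the alpha subunit of eIF2. Probe set 1434452_x_at had 391.8, 330.8, 313.6 and 455.3 in knockout livers, against 604.2, 823.5 and 899.0 in wild type livers. The groups did not overlap, and the knockout mean of 372.9 ± 64.4 was 2.03-fold below the wild type mean of 775.6 ± 153 on the fitted scale. The log2 fold change of -1.02 ± 0.19 was the largest of any member (limma adjusted p = 0.0230).

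The brighter Eif2a probe set, 1460575_at, showed a smaller gap. It had 831.1, 958.3, 887.8 and 742.1 in knockout livers and 978.9, 1011 and 959.4 in wild type livers. Those values also did not overlap, though by less than 2 units of intensity, 958.3 in knockout 2 against 959.4 in wild type 3. The log2 fold change was -0.20 ± 0.14 and did not pass (limma adjusted p = 0.440). An ID ending in _x_at marks probes that can match unrelated transcripts too.

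No eIF2 or eIF2B subunit was called. Eif2s2, the only eIF2 subunit among the members, encodes the beta subunit, and its 6 tested probe sets were all lower in knockout, with log2 fold changes of -0.59 to -0.15. The brightest had 12016, 10054, 9992 and 8287 in knockout livers and 11263, 11096 and 11315 in wild type livers, where knockout 1 stood above every wild type array. A dimmer one, 1448819_at, had 918.5, 750.7, 833.5 and 840.8 in knockout livers and 1239, 1221 and 1162 in wild type livers. There the groups were apart, at a log2 fold change of -0.53 ± 0.14, and missed the threshold (limma adjusted p = 0.0598).

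Of the 7 tested probe sets of eIF2B subunits, 5 were lower and 2 higher, and over the brightest probe sets of its 5 genes 3 were lower and 2 higher. Eif2b2, the beta subunit, had 1648, 1547, 1546 and 1431 in knockout livers and 2193, 1842 and 1746 in wild type livers. The groups did not overlap, and the log2 fold change was -0.31 ± 0.14 (limma adjusted p = 0.213). Its other probe sets were at -0.18 and -0.59. Eif2b4, the delta subunit, and Eif2b1, the alpha subunit, were the 2 genes with higher values, at 0.13 and 0.04. Eif2b5, the catalytic epsilon subunit, was at -0.09 with a 95% interval from -0.39 to 0.20, and Eif2b3, the gamma subunit, was at -0.26. Eif2d, which can deliver transfer RNA without GTP, had 4 tested probe sets between -0.09 and 0.23, with both signs.

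In the eIF3 complex, the large scaffold on the small ribosomal subunit, 17 of 20 tested probe sets were lower and 3 higher. The 11 member genes do not cover the whole complex, since Eif3g, Eif3j1 and Eif3j2 were not among them. Over the brightest probe sets of these 11 genes, log2 fold changes ran only from -0.19 to 0.11. The call was on Eif3e, which encodes a subunit of the complex. Probe set 1439268_x_at had 4738, 4094, 3681 and 4951 in knockout livers and 7128, 6156 and 6698 in wild type livers. No knockout value reached a wild type one, and the log2 fold change was -0.61 ± 0.13 (limma adjusted p = 0.0343).

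The brightest Eif3e probe set, 1460432_a_at, had 9947, 8219, 8117 and 8714 in knockout livers and 10408, 9926 and 9291 in wild type livers. Knockout 1 fell among the wild type values, and the log2 fold change was -0.18 ± 0.11 (limma adjusted p = 0.374). Another, 1434523_x_at, was at -0.24 ± 0.11 (limma adjusted p = 0.228), with the groups apart.

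Eif3a, the largest subunit and an organiser of the complex, had 4 tested probe sets, all lower, from -0.38 to -0.09. The brightest averaged 8719 ± 346 in knockout livers and 9786 ± 760 in wild type livers, and the groups did not overlap (log2 fold change -0.16 ± 0.10, limma adjusted p = 0.368). Another, 1416659_at, had 4372, 4153, 3517 and 4356 in knockout livers and 5445, 5139 and 5340 in wild type livers. Its groups did not overlap either, and the log2 fold change of -0.38 ± 0.12 did not pass (limma adjusted p = 0.103).

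Eif3d, a subunit that can itself bind the cap of some messages, averaged 6381 ± 514 in knockout livers and 7158 ± 376 in wild type livers (log2 fold change -0.17, limma adjusted p = 0.40). Eif3f, whose start is shown above, had 14751, 10634, 11073 and 12346 in knockout livers and 14976, 12829 and 12907 in wild type livers. The groups overlapped through knockout 1, and the log2 fold change was -0.16 ± 0.13. Eif3i had its groups apart in the dimmer of its 2 probe sets, at -0.41 ± 0.11 (limma adjusted p = 0.0731), and was at -0.02 in the brighter one. The genes with a higher brightest probe set were Eif3c at 0.11, Eif3h at 0.04 and Eif3l at 0.02.

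Factor 4, which binds the cap and unwinds the message, had 32 tested probe sets, 21 lower and 11 higher, and 0 were called. Eif4g2, also known as Dap5, is a scaffold like eIF4G that lacks the site for eIF4E. Its brightest probe set, 1452758_s_at, had 13132, 13250, 14262 and 13662 in knockout livers and 16702, 16824 and 17075 in wild type livers. The wild type livers lay close together and well above every knockout liver. The mean was 13576 ± 510 in knockout livers and 16867 ± 191 in wild type livers, and the log2 fold change of -0.31 ± 0.08 missed the threshold (limma adjusted p = 0.0671). It passed under 3 of 16 alternative settings. All 4 tested Eif4g2 probe sets were lower, from -0.59 to -0.16, and in 3 of them the groups did not overlap. Eif4g3, a paralogue of eIF4G, was at 0.07 and 0.08 in its tested probe sets. Eif4g1 was not among the members.

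Both measured eIF4A helicases were lower without a call. Eif4a2 had 5974, 5138, 4736 and 7115 in knockout livers and 6569, 8598 and 9187 in wild type livers. Knockout 4 exceeded wild type 1, and the log2 fold change was -0.50 ± 0.17 (limma adjusted p = 0.119). Eif4a1 had 3 probe sets between -0.40 and -0.13. Eif4a3, a core protein of the exon junction complex, had 1 probe set with a single symbol, with intensities of 2.9 to 43.3 in knockout livers and 6.0 to 52.5 in wild type livers, too dim to test. The helicase partners Eif4b and Eif4h had 6 of 7 tested probe sets lower. The brightest probe set of Eif4b was at -0.03, and that of Eif4h at -0.11 with the groups apart.

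Eif4e, the cap-binding protein, had probe sets of opposite sign. The brightest, 1450908_at, had 3017, 3082, 2881 and 2638 in knockout livers and 2813, 2284 and 1968 in wild type livers. Knockout 4 fell below wild type 1, and the log2 fold change was 0.31 ± 0.15 (limma adjusted p = 0.246). The 2 dimmer ones were at -0.30 and -0.48, and neither passed. The cap-binding relatives Eif4e2 and Eif4e3 were at 0.04 and -0.08 by their brightest probe sets. Among the proteins that hold eIF4E, Eif4enif1, which carries it into the nucleus, was at 0.01. Eif4ebp2, a repressor of eIF4E, was at -0.05 in its brightest probe set and up to 0.41 in a dimmer one, 1437733_at. That probe set had 744.2, 756.1, 1003 and 921.4 in knockout livers and 486.3, 710.7 and 741.2 in wild type livers, the only tested member whose groups were apart in the higher direction (limma adjusted p = 0.247).

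All 12 tested probe sets of factor 5 were lower in knockout, from -0.79 to -0.02, and 0 were called. Eif5a2, an isoform of eIF5A, had 164.7, 180.6, 180.8 and 108.9 in knockout livers and 301.7, 344.6 and 214.0 in wild type livers. The groups did not overlap, but the signal was dim and the log2 fold change of -0.79 ± 0.23 did not pass (limma adjusted p = 0.0855). Eif5a, the main isoform, which carries the modified lysine hypusine, had 22688, 22935, 23869 and 22306 in knockout livers and 25667, 23140 and 24491 in wild type livers. Its groups overlapped, with a log2 fold change of -0.09 and a 95% interval from -0.27 to 0.09.

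Eif5b, which joins the ribosomal subunits, averaged 1362 ± 265 in knockout livers and 1544 ± 108 in wild type livers (log2 fold change -0.20, limma adjusted p = 0.539). Eif5, which triggers GTP hydrolysis on eIF2, had 5 probe sets from -0.33 to -0.02, and in 2 of them the groups did not overlap. Eif6 stood on the other side. It had 3942, 3270, 4414 and 3736 in knockout livers and 3443, 3887 and 3222 in wild type livers. Those groups overlapped, and the log2 fold change was 0.12 with a 95% interval from -0.18 to 0.42 (limma adjusted p = 0.649). The 19 untested probe sets had intensities of 1.0 to 177.2 over all arrays.

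**Figure D3:**
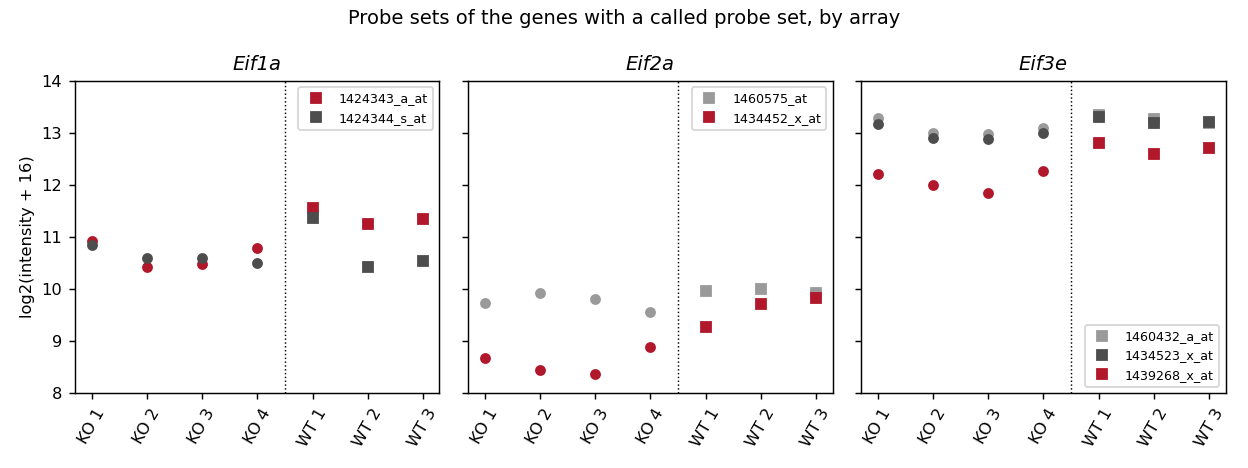
Log2(intensity + 16) of every tested probe set of Eif1a, Eif2a and Eif3e on each array, with knockout arrays as circles left of the dotted line and wild type arrays as squares right of it. The called probe sets, in red, lie lower in every knockout array than in any wild type array. The second probe set of Eif1a and the brightest of Eif3e overlap between groups.

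The called probe sets are set beside the other tested probe sets of their genes as a description, with no test, since they were picked for their lower knockout values. For each array the log2 value of the other probe set was subtracted from that of the called one. The difference in Eif2a averaged -1.17 in knockout livers and -0.36 in wild type livers, with ranges of -1.49 to -0.69 in knockout and -0.68 to -0.09 in wild type. For Eif3e the difference to the brightest probe set averaged -1.01 in knockout livers and -0.57 in wild type livers. That of Eif1a averaged 0.01 in knockout livers and 0.61 in wild type livers, and the ranges overlapped. Of 24 genes with at least 2 tested probe sets, 7 had probe sets of opposite sign, namely Eif1ad, Eif2d, Eif3c, Eif4b, Eif4e, Eif4e2 and Eif4ebp2.

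All 3 called probe sets had an ID ending in _a_at or _x_at. Of 11 members ending in _x_at 2 were called, beside 4.67% of all 1476 tested probe sets of that kind, and their median log2 fold change was -0.24, beside -0.10. Of 18 members ending in _a_at 1 was called, beside 4.69% of all 3307, and the median was -0.16, beside 0.006. The 5 members ending in _s_at had 0 calls, beside 5.19% of all 1579. Members with a plain _at ending had a median of -0.16 and 0 calls over 56, beside -0.04 and 4.02% over all 16156 of that kind. The part of probes that match other transcripts in the calls was not tested.

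The 3 calls were often lost with fewer arrays, while the fold changes kept their sign. With 1 array left out, Eif2a passed in 4 of 7 cases, Eif3e in 2 and Eif1a in 1. The highest limma adjusted p came without wild type 3 for each, at 0.125 for Eif2a, 0.150 for Eif3e and 0.141 for Eif1a. The log2 fold changes themselves stayed between -1.19 and -0.91 for Eif2a, between -0.68 and -0.54 for Eif3e and between -0.83 and -0.65 for Eif1a. Without wild type 3, only 127 of all probe sets passed.

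**Figure D4:**
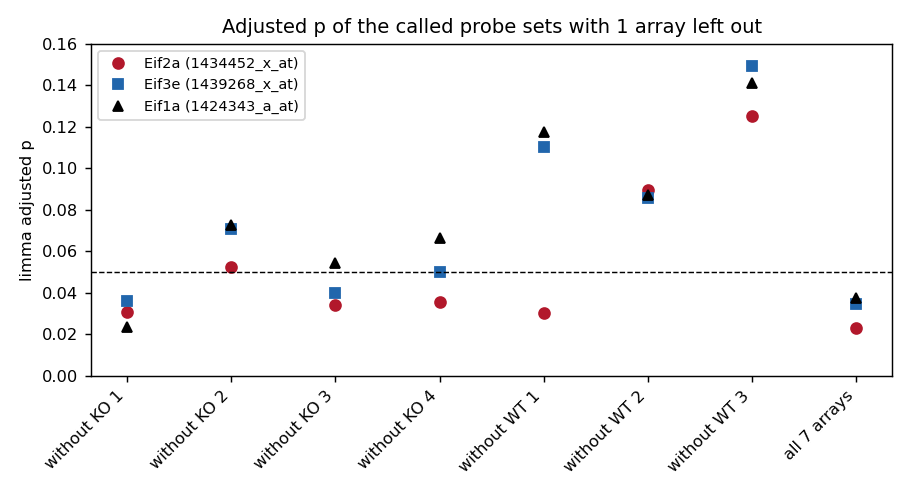
Limma adjusted p of the 3 called probe sets with each array left out in turn and with all 7 arrays, and a dashed line at 0.05. All 3 lie under the line with all arrays and without knockout 1, and in no other case.

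Markers of red cell precursors, which newborn liver still holds, were lower in knockout on the same arrays. All 8 tested markers were lower, from -0.74 in Epb42 to -0.03 in Klf1, with a median log2 fold change of -0.43. The groups overlapped in Epb42, Gata1 and Klf1. Slc4a1, Rhag and Trim10 passed, at -0.39 ± 0.09, -0.49 ± 0.11 and -0.68 ± 0.16 (limma adjusted p = 0.0412, 0.0443 and 0.0454). That is 3 of 8, beside 4.76% of all genes taken by their brightest probe set. With arrays scaled to equal medians none of the 3 passed (limma adjusted p = 0.0805 for Slc4a1, 0.119 for Rhag and 0.0637 for Trim10), nor with the replicate block (limma adjusted p = 0.18, 0.147 and 0.115). With 1 array left out, Slc4a1 passed in 2 of 7 cases, and Rhag and Trim10 in 1 each. The mean log2 level of the list ran from 12.37 to 12.52 in knockout livers and from 12.69 to 12.97 in wild type livers. The mean log2 level of the 90 initiation factor probe sets ran from 10.78 to 10.92 in knockout livers and from 10.97 to 11.06 in wild type livers. Both ranges are for arrays as deposited. The level was 10.92 in knockout 1, whose array median was 6.86, and 10.97 in wild type 3, whose median was 6.93. With equal medians the initiation factor levels would therefore overlap between groups, while those of the red cell list would stay apart. The part of red cell precursors in the initiation factor values was not tested, and in whole liver, fewer cells of a type and less RNA per cell cannot be told apart. Endothelial markers were lower in 5 of 5 (median -0.41) and B cell precursor markers higher in 5 of 5 (median 0.37). Neutrophil markers were lower in 5 of 6, Kupffer cell markers in 4 of 6 and stellate cell markers in 3 of 6. These 5 lists had 0 calls, and their levels overlapped between groups. The 7 hepatocyte markers had a median of 0.08 and 0 calls, and their list levels ran from 14.31 to 14.81 in knockout livers and from 14.41 to 14.48 in wild type livers.

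**Figure D5:**
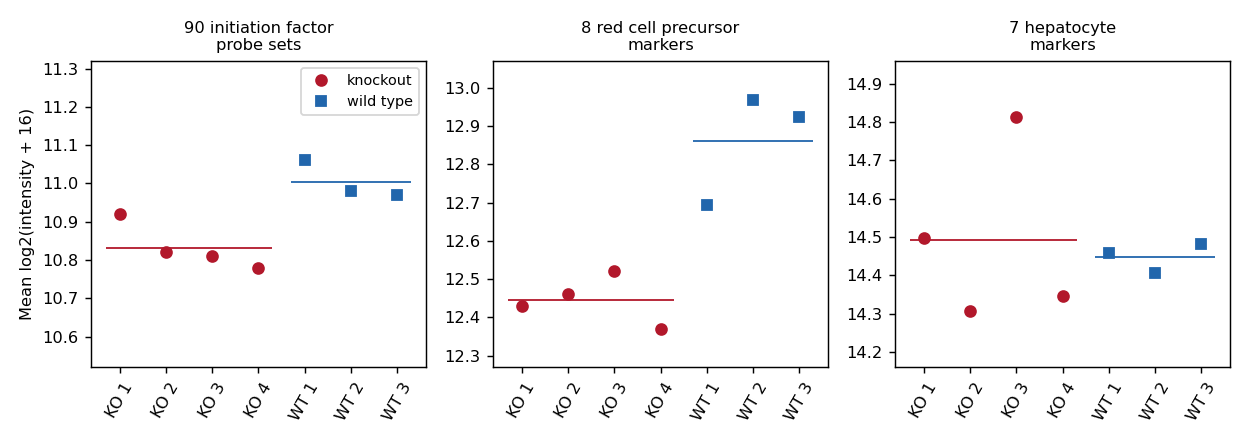
Mean log2(intensity + 16) on each array of the 90 initiation factor probe sets, of 8 red cell precursor markers and of 7 hepatocyte markers, with bars at the group means. Arrays are shown as deposited. Knockout arrays lie below wild type arrays in the first 2 panels and overlap with them in the third. With arrays scaled to equal medians the groups would overlap in the first panel as well. Each panel spans the same height on the log2 scale.

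Genes that act on these factors were also looked at, in 5 lists with 57 measured genes, 56 of them tested. Taking each gene's brightest probe set, 5 were called lower and 0 higher, or 8.93%, beside 4.76% of all genes tested in that way, and 30 were lower and 26 higher. With arrays scaled to equal medians, 4 of the 5 calls were lost, at a limma adjusted p of 0.0739 for Mknk2, 0.124 for Pabpc4, 0.132 for Ppp1r15a and 0.083 for Eif4ebp1, and Sesn1 passed at 0.0484. The same 4 did not pass with the replicate number as a block, which also leaves out knockout 4. Mknk2, a kinase that phosphorylates eIF4E, had 7094, 6670, 6028 and 7516 in knockout livers and 9890, 9075 and 10666 in wild type livers. The groups were apart, at a log2 fold change of -0.53 ± 0.11 (limma adjusted p = 0.0338). Its other tested probe set, at -0.47, was not called. Pabpc4, which binds the poly(A) tail and eIF4G, fell by 0.42 ± 0.10 on the log2 scale (limma adjusted p = 0.0462), and its other tested probe set, at -0.31, was not called.

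The list of eIF2 kinases and phosphatases with Eif4ebp1 gave 2 calls among 8 tested genes, beside 4.76% of all genes taken by their brightest probe set. Ppp1r15a brings a phosphatase to eIF2 and so restores initiation after stress. It had 6239, 5170, 6135 and 5897 in knockout livers and 7689, 8591 and 7941 in wild type livers, a log2 fold change of -0.46 ± 0.11 (limma adjusted p = 0.0465). Eif4ebp1, which the rule for members leaves out, represses eIF4E until mTOR phosphorylates it. Its brightest probe set had 2620, 3077, 2625 and 3003 in knockout livers and 4387, 3584 and 4442 in wild type livers (log2 fold change -0.54 ± 0.13, limma adjusted p = 0.0484), and its other tested probe set was at -0.26 and not called. Eif2ak1, the heme-regulated kinase of eIF2, was at -0.38 ± 0.12 and did not pass (limma adjusted p = 0.110).

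In the mTORC1 list 1 of 17 tested genes was called, beside 4.76% of all genes taken by their brightest probe set. Of the 17, 8 were higher in knockout and 9 lower. Sesn1, a stress-induced inhibitor of mTORC1, had 1539, 1528, 1288 and 2237 in knockout livers and 4910, 2345 and 4397 in wild type livers. Knockout 4 came close to wild type 2 without reaching it, and the log2 fold change was -1.19 ± 0.26 (limma adjusted p = 0.0380). Its 3 other tested probe sets were also lower, from -1.78 to -0.65, and 2 of them passed. Nprl3 was at -0.54 ± 0.13 and missed the threshold (limma adjusted p = 0.0525). Mtor itself was at 0.61 ± 0.16 (limma adjusted p = 0.0617), with 1277 to 1817 in knockout livers and 949.1 to 1115 in wild type livers. Sesn2 at -0.98 and Ddit4 at -1.71 were lower, and Nprl2 at 0.66 and Sesn3 at 0.75 higher, all without a call. Among the 9 tested elongation and termination factors, 0 passed, and Eefsec, the elongation factor for selenocysteine, came nearest at 0.63 ± 0.16 (limma adjusted p = 0.0504). The 11 other initiation and recycling proteins had 0 calls, with 6 higher and 5 lower in knockout and a median log2 fold change of 0.03. Among them, the mitochondrial initiation factors Mtif2 and Mtif3 were at 0.49 and 0.53. With 1 array left out, Mknk2, Sesn1 and Ppp1r15a passed in 2 of 7 cases each, and Pabpc4 and Eif4ebp1 in 0.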

How the data were processed

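RNA from 7 livers was measured on Affymetrix Mouse Genome 430 2.0 arrays, 1 per liver. The deposited values are intensities on a linear scale. The submitters' processing notes name GCOS. The way probes were combined into 1 value is not given in these sources. Intensities were transformed to log2(value + 16) without further scaling, since array medians lay within 0.2. After 64 control probe sets were left out, those with a mean above the median were kept, which gave 22518. Knockout was compared with wild type in limma 3.58.1 under R 4.3.3, using lmFit, then eBayes with its trend option, without covariates, with Benjamini-Hochberg adjustment over all 22518. SDs are over 4 knockout or 3 wild type arrays, and errors of fold changes are limma's SEs. The number of arrays limits the precision. Symbols come from the platform annotation, and chromosomes and promoters from RefSeq GRCm38.p6.

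Named are all genes with a called probe set and, per factor, the 3 genes of smallest p by brightest probe set and the brightest gene. Others were named after their values were seen. The members and lists were chosen with earlier results of these data known. Alternatives covered offset, scaling, filter, variance model, left-out arrays, replicate block and shared probe sets. Steps were tested on simulated data. Plots used matplotlib 3.10.9.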

Additional observations from a re-analysis of the deposited data

Results flagged for a closer look

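In 4 of the 90 tested probe sets, 1 knockout array stood far from the other 3. The measure is its gap to the nearest of them over the whole range of the group, set against Dixon's 95% critical value. They were 1451211_a_at of Eif2d with knockout 2 at 0.917, 1415859_at of Eif3c with knockout 2 at 0.879, 1436158_at of Eif4ebp2 with knockout 4 at 0.846 and 1448425_at of Eif3a with knockout 1 at 0.845. In each the deviating array was the highest of its group, and none of the 4 probe sets was called. Chance gives about 1 in 20 such groups, and the 3 wild type arrays are too few for the same check.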

How the results depend on the processing

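No setting called an initiation factor higher in knockout. The count of 3 called lower was 1 with arrays scaled to equal medians, 1 with no filter and 1 with eBayes without a trend. It was 5 with the filter above the 75th percentile, and 0 to 3 without 1 array. Leaving out probe sets ending in _s_at, _x_at or _a_at removes all 3 called ones before the fit, and the count was then 0. The median log2 fold change of -0.16 was -0.10 with equal medians and -0.10 over genes by the brightest probe set. It was negative in all alternatives run. The 955 calls over all probe sets became 473 with no filter, 584 without a trend and 538 without shared probe sets, and 127 to 1006 without 1 array. With the replicate number as a block, which also leaves out the unpartnered knockout 4, 351 of all probe sets and 0 initiation factors passed, and the median was -0.14. Without knockout 4 alone these were 375, 1 and -0.14. Same-numbered arrays did not deviate together (r = 0.0866, -0.0562 and 0.0553), so the numbers were not taken as pairs. Of 90 tested probe sets, 24 changed sign under some setting, none of them called there.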
